A study of Mus musculus with 2 samples.

Results

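The respiratory chain of mitochondria passes electrons from NADH to oxygen through complexes I, III and IV and pumps protons, and ATP synthase uses the proton gradient to make ATP. Most subunits of these enzymes are encoded in the nucleus, by genes that nearly all cells use, and a few come in forms restricted to muscle, testis or lung. Their members here were chosen by symbol: autosomal protein-coding genes of the RefSeq annotation that start with Ndufa, Ndufb, Ndufc, Ndufs, Ndufv, Uqcr, Cox4i, Cox5, Cox6, Cox7, Cox8 or Atp5. The rule took 89 of 20665 genes. Complex I (NADH dehydrogenase) had 39 of them, complex III (the cytochrome bc1 complex) 8, complex IV (cytochrome c oxidase) 17 and ATP synthase 17. The remaining 8 were Ndufaf genes, whose products help to assemble complex I without being part of it.

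The series maps chromatin recovered with an antibody against GFP from snap-frozen mouse heads at E10.5, and its title names histone H3.2. It has 2 ChIP-seq libraries with the same labels (tissue and antibody), here library 1 and library 2. The labels give no genotype, strain, GFP-tagged protein or control, so there was no contrast to test. All values describe positions in each library's own peak list, and intervals cover counting error only. DNA positions cannot show whether the tissue label holds. Library 1 has 584724 deposited peaks and library 2 has 348, of which 118 lie on autosomes.

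Library 1 peaks were almost universal at these genes, and library 2 peaks were not found. A peak was assigned by its summit, the position of highest signal, when that lay in the gene or within 1 kb of either end. In library 1, 88 of 89 genes had such a peak (98.9%, 95% Clopper-Pearson interval 93.9 to 99.97), where 90% of all autosomal protein-coding genes had one. The exception was Atp5b. In library 2 the count was 0 of 89, which allows a share of up to about 3.37%, taken as 3 counts in 89. The share over all autosomal protein-coding genes was 0.15%. The library 2 peak nearest to any of the 89 genes lay 18.01 kb from Ndufb3, and the median distance was 12048 kb. The 2 libraries therefore differed at 88 genes, as they did across the genome.

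The genes are short, and longer genes held more peaks. Their median length was 7.18 kb (0.471 to 106 kb), against 17.5 kb for all autosomal protein-coding genes. Values are therefore set beside a length-matched value, the mean of other autosomal genes in the same of 10 length bins, weighted by the members in each bin and without olfactory (Olfr) and vomeronasal (Vmn) receptor genes. This comparison is a description, with no test. By length alone, 89.8% of genes would have had a peak, close to the share in all genes.

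A peak near a gene end was more frequent than at genes of the same length, while peaks per kb were fewer. Within 1 kb of either end, 82 of 89 genes had a library 1 peak (92.1%, 84.5 to 96.8), against 80.6% of all autosomal protein-coding genes and 83.1% of length-matched ones. Over the whole window the genes held 435 peaks in 1267 kb, or 0.343 per kb (95% Poisson interval 0.312 to 0.377). Length-matched genes held 0.482 per kb, a ratio of 0.712 (0.647 to 0.782). In the flanks, 10 to 50 kb from the gene on either side, density was 0.448 per kb, and 0.428 per kb at length-matched genes. The flank value is a mean over genes, while the window value pools kb, so long genes weigh more in it. With each gene weighted alike, window density was 0.422 per kb against 0.521, which raised the ratio to 0.809. Over the 89 genes the flanks were not poorer in peaks than at length-matched genes. Of genes matched on flank density as well as length, 85.6% had an end peak. That share lies inside the members' interval (84.5 to 96.8), and the density ratio with this matching was 0.738. At 51 genes of at least 3 kb with a known start, flanks held 0.398 per kb before the start, against 0.425. After the end they held 0.421, against 0.434.

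The direction of the first difference turned with the strength of the peaks. With a −log10 q-value of at least 5, 34 genes (38.2%) had an end peak, against 46.8% of all autosomal protein-coding genes and 49.8% of length-matched ones. When the list was limited to its top 10% of peaks by fold enrichment, it was 9 genes (10.1%), against 14.2% and 15.5%. Fold enrichment is the authors' ratio of summit signal to local background. By these shares strong end peaks were rarer than at length-matched genes, although end peaks of any strength were more frequent. Complex I was an exception in the top 10%, with 20.5% of its 39 genes against 15.2%. No intervals are given for shares from the stricter lists, and these differences were not tested. The lower density per kb kept its direction with both stricter lists, with ratios of 0.637 and 0.562.

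**Figure D1:**
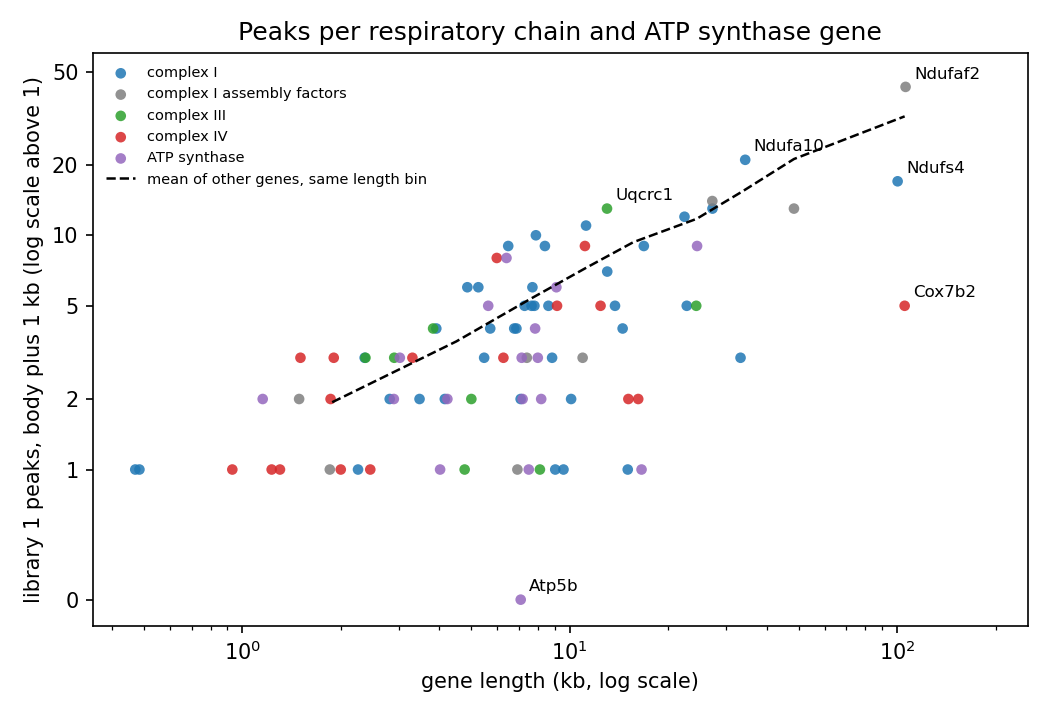
Number of library 1 peaks in each gene's body plus 1 kb (vertical, log scale above 1) against gene length in kb (horizontal, log scale), 1 point per gene, coloured by complex; the dashed line is the mean of other genes in the same length bin. Of the 89 genes, 57 (64.0%) lie below their bin's mean, as do 51.7% of length-matched genes, Atp5b lies at 0 peaks, and Cox7b2 has 5 peaks over 105 kb.

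Single peaks were modest. The 435 peaks had a median fold of 3.77 (2.07 to 8.16), against 3.90 over all autosomal peaks of the list. The pileup, the count of reads stacked over a summit, was recovered from the deposited fold and p-value and had a median of 14 (8 to 30). A −log10 q of at least 5 was reached by 152 of them (34.9%), and by 41.1% of all autosomal peaks. The strongest peak of a gene had a median fold of 4.58 over the 88 genes with a peak (4.31 to 4.85, interval of the median), against 5.0 at length-matched genes. In number, genes ranged from 0 to 43 peaks with a median of 3, and 18 genes had a single peak.

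**Figure D2:**
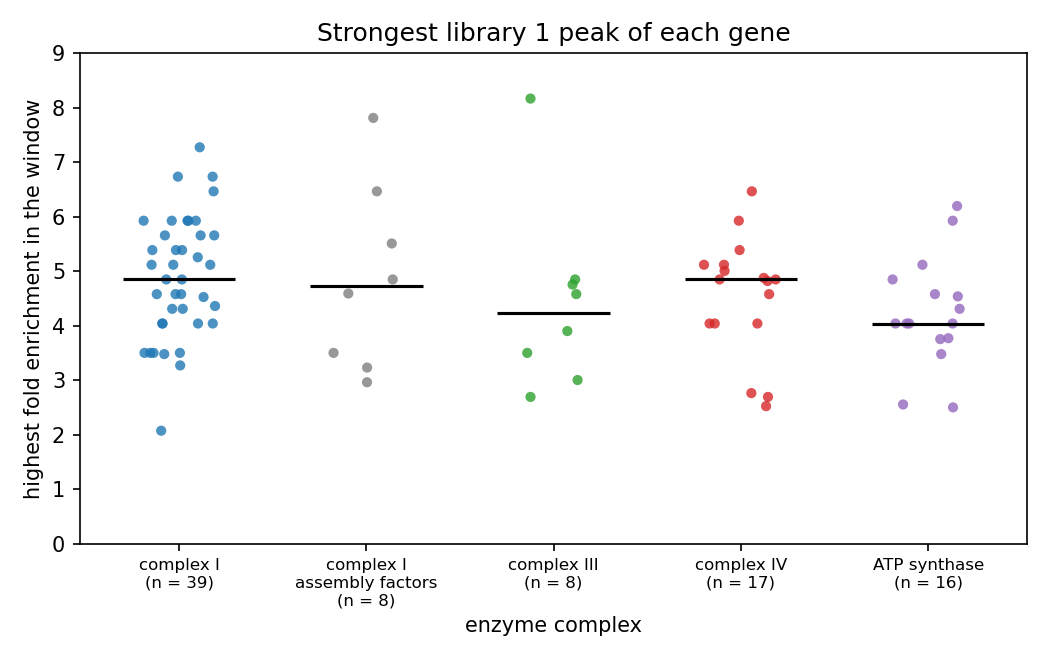
Fold enrichment of the strongest library 1 peak in each gene's window (vertical), by complex (horizontal), with 1 point per gene and a line at the median; Atp5b has no peak and is left out. Complex I and complex IV share a median of 4.85, ATP synthase has 4.04, and the highest point is Uqcrc1 at 8.16.

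Complex I takes electrons from NADH and is the largest of the enzymes. All 39 of its genes had a library 1 peak, and 38 had one at an end (97.4%, 86.5 to 99.9), against 83.7% at length-matched genes. Ndufa6 was the exception, with 2 peaks further inside. Density was 0.379 peaks per kb, 0.774 times the length-matched value (0.674 to 0.885). The strongest peak lay in Ndufa9, an accessory subunit of the membrane junction (chromosome 6, 126821863 to 126849144 in mm10). It spanned 126824791 to 126825049 in the gene body, enriched 7.27-fold at a pileup of 26 reads (95% Poisson interval 17 to 38.1). Ndufb4b followed at 6.73-fold and 24 reads (15.4 to 35.7). It is a 0.471 kb gene on chromosome 19 named after the subunit gene Ndufb4, and how uniquely reads map to such a copy was not tested. Of the core subunits of the peripheral arm, Ndufs3 had 2 peaks with a highest fold of 5.92, while Ndufs7 and Ndufv1 had 6 each with 5.66 and 4.04. Ndufs1, another core subunit gene of 33.2 kb, had 3 peaks against a bin mean of 15.4. Ndufa10 held the most peaks of the complex, 21 in 34.3 kb where its length bin averaged 15.4. Ndufs4, needed for the last steps of assembly, had 17 peaks in 100.3 kb against a bin mean of 32.2. The weakest gene was Ndufa2, whose single peak had a fold of 2.07.

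The 8 assembly factor genes all had a peak and an end peak, against 83.9% at length-matched genes. With −log10 q of at least 5, 12.5% of them had an end peak, against 49.7% at length-matched genes. Among 8 genes this share is a single gene, and no interval is given for it. Ndufaf1, whose product acts on an early membrane intermediate, had a 7.81-fold peak of 28 reads (18.6 to 40.5), second only to Uqcrc1 among the 89 genes. It lay in the body at chromosome 2, 119657559 to 119657862. Ndufaf2, a late-acting factor, carried 43 peaks in 106 kb (bin mean 32.2), the most of any member, and its strongest had a fold of 6.46. Ndufaf2 alone supplied 43 of the 80 peaks of this group. With it, density was 0.829 of the length-matched value (0.657 to 1.03), and without it 0.669.

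Complex III hands electrons to cytochrome c. Its 8 genes all had an end peak (100%, 63.1 to 100), against 82.1% at length-matched genes, and density was 0.772 of the length-matched value with an interval that includes 1 (0.528 to 1.09). Uqcrc1, which encodes a core protein of the complex, had the highest fold of all members, 8.16, from 30 reads (20.2 to 42.8). That peak lay inside the gene at chromosome 9, 108947310 to 108947475. Uqcrc1 also held the most peaks of the complex, 13 in 13.0 kb against a bin mean of 7.26. Uqcrb, a small subunit at the quinone-binding side, had 1 peak outside its body, with a fold of 4.85. The Rieske iron-sulphur protein gene Uqcrfs1 had 2 peaks, the stronger with a fold of 3.90, and Uqcrh, the hinge protein gene, had 1, with 2.69. Uqcrc2, the partner of Uqcrc1 in the core, had 5 peaks in 24.3 kb and a highest fold of 4.58.

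Complex IV reduces oxygen. All 17 genes had a peak and 15 an end peak (88.2%, 63.6 to 98.5), against 81.9% at length-matched genes. Cox5a and Cox7a2 lacked an end peak. Density was 0.237 per kb, 0.510 of the length-matched value (0.384 to 0.664), and 1 gene set much of this. Cox7b2, a relative of Cox7b, spans 105 kb on chromosome 5 and held 5 peaks where its length bin averaged 32.2, and without it the ratio was 0.760. Its flanks held 0.138 peaks per kb, against 0.437 for the complex. Cox7b2 nevertheless had the strongest peak of the complex, 6.46-fold from 23 reads (14.6 to 34.5). Cox7a2l, which encodes a factor that links complexes III and IV, followed at 5.92-fold, and Cox4i2 held the most peaks, 9. The lowest highest fold among the widely expressed subunits was 2.69, at Cox7c.

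ATP synthase had the lowest share of genes with an end peak. It was 13 of 17 (76.5%, 50.1 to 93.2), against 83.0% at length-matched genes. Density was 0.328 per kb, 0.615 of the length-matched value (0.462 to 0.803). Among the genes without an end peak were Atp5b, Atp5g2, Atp5g3 and Atp5pb. Atp5b encodes the catalytic beta subunit (chromosome 10, 128083307 to 128090388). It had no peak although its length bin averaged 5.34 and its flanks held 0.425 peaks per kb. Atp5a1, the gene of the alpha subunit that alternates with beta in the catalytic head, had 6 peaks. Its strongest was enriched 6.19-fold from 22 reads (13.8 to 33.3). Atp5o, which encodes the stalk protein OSCP, had 8 peaks with a highest fold of 5.92. Atp5c1, the gene of the rotating gamma subunit, held the most peaks, 9, with a highest fold of 4.04. Atp5d and Atp5e, for the small subunits delta and epsilon beside it, had 3 each. Atp5pb, for the peripheral stalk subunit b, had 1 peak in 16.6 kb, with a fold of 2.50. In the top 10% of peaks by fold, no ATP synthase gene had an end peak, against 15.3% at length-matched genes. This was not particular to ATP synthase. No complex III or assembly factor gene had one either, and the share was 5.88% at complex IV and 20.5% at complex I. These groups are small, and no intervals are given for these shares.

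**Figure D3:**
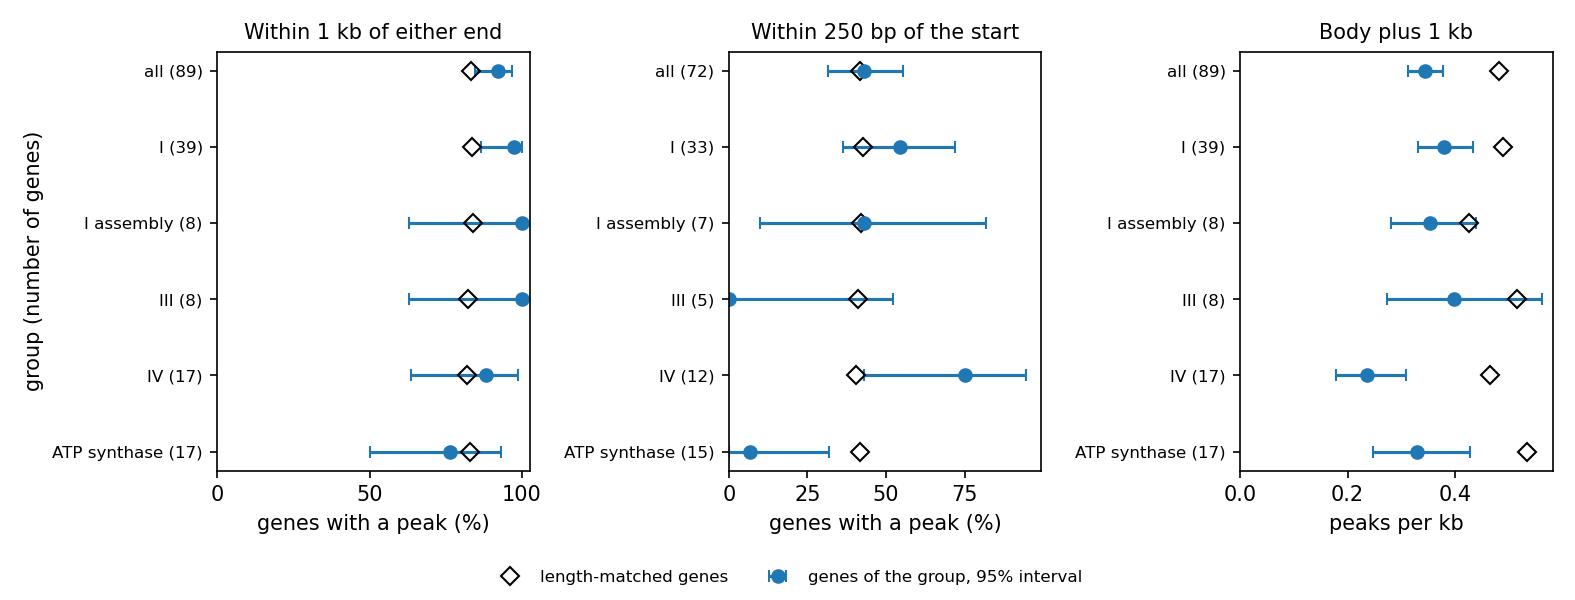
Share of genes with a library 1 peak within 1 kb of either end (left, %), share with a peak within 250 bp of the start (middle, %) and peaks per kb of gene body plus 1 kb (right), for all members and each group, the number of genes in parentheses. Filled circles are the group with its 95% interval and open diamonds length-matched genes; in the right panel every circle lies below its diamond, and in the middle panel complex IV (75%) and ATP synthase (6.67%) lie on opposite sides.

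The strand and start of 72 members came from the promoter table of RefSeq (GRCm38.p6), and 17 members had no entry. Within 1 kb of the start, 54 of 72 had a library 1 peak (75%, 63.4 to 84.5), against 69.4% of all autosomal protein-coding genes of the table and 70.2% of length-matched ones. Within 250 bp it was 31 (43.1%, 31.4 to 55.3), against 40.7% and 41.8%. Genes matched on GC content around the start, instead of length, had 76.6% within 1 kb and 48.3% within 250 bp. These values lie above the members. Both member shares lie near the background. The complexes spread widely around the member shares. A peak within 250 bp of the start was found at 9 of 12 complex IV genes (75%, 42.8 to 94.5), 18 of 33 complex I genes (54.5%, 36.4 to 71.9) and 3 of 7 assembly factor genes. At ATP synthase genes it was 1 of 15 (6.67%, 0.169 to 31.9), and at complex III genes 0 of 5. Length-matched shares were between 40.3% and 42.5% for all 5 groups.

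The ATP synthase value depends on the window. With any overlap of a peak with the 250 bp around the start, 6 of its 15 genes counted, and with summits within 500 bp also 6. Complex IV gave 9 and 10 of 12 under the same changes. With −log10 q of at least 5, 4 complex I genes and 1 complex IV gene had a peak within 250 bp. No gene of ATP synthase, complex III or the assembly factors had one. Shares over other genes were not computed at these changed settings. Whether such start peaks are as rare at other genes was therefore not tested. The gene with the summit nearest to a start among ATP synthase genes was Atp5md, 5 bp before the start. At the other genes of this enzyme the nearest summit lay 268 bp or more away, and the median distance was 927 bp. In complex IV the median was 172 bp and in complex I 237 bp.

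Around starts, summits formed a narrow peak with few summits on either side. Of the 72 genes, 51 are at least 3 kb long with the start within 100 bp of the gene's annotated end. In the first 250 bp of these 51 there were 14 summits, 1.098 per kb (0.600 to 1.84), against 1.07 at length-matched genes. Between 500 and 1500 bp inside the gene, the counts in the 4 successive bins were 2, 0, 1 and 2 summits, or 0 to 0.157 per kb, where length-matched genes held between 0.365 and 0.492. Of these bins, 750 to 1000 bp alone had an interval (0 to 0.289) below its length-matched value of 0.407. Before the start, the bins from -1000 to -750 bp and from -750 to -500 bp held 1 and 0 summits, against 0.285 and 0.279 per kb at length-matched genes, which lie inside their intervals (upper ends 0.437 and 0.289). In the interior, more than 1 kb from either end, density was 0.282 per kb (0.244 to 0.323) against 0.431, a ratio of 0.653. This value pools kb, so long genes weigh more in it. By group the interior ratio was 0.195 for complex IV (9 summits in 122 kb), 0.531 for ATP synthase and 0.710 for complex I. It was 0.871 for complex III and 0.890 for assembly factors. The kb before the start (0.333 against 0.388) and the kb after the end (0.510 against 0.453) had intervals that include the length-matched value.

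**Figure D4:**
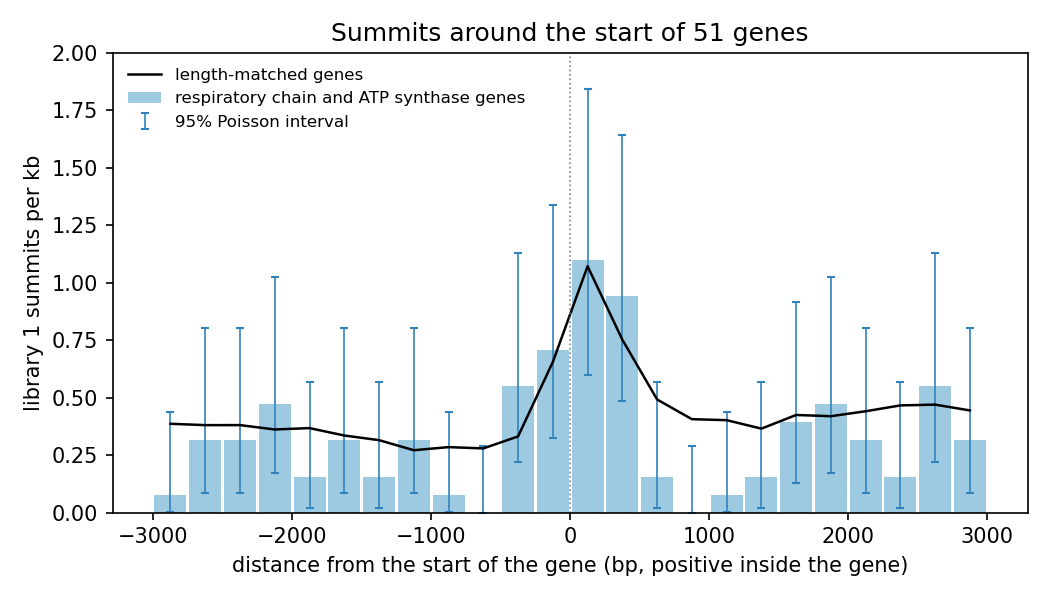
Library 1 summits per kb in bins of 250 bp (vertical) by distance from the start of the gene in bp (horizontal, positive inside the gene), for 51 members at least 3 kb long; bars are the members with 95% Poisson intervals and the line is the length-matched value. The bars reach 1.098 in the first bin inside the gene and fall to 0 between 750 and 1000 bp, where the line is at 0.407.

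Promoters of respiratory genes are known for sites of nuclear respiratory factor 1 (NRF1), of the ETS-family factor GABP and of YY1. The letters searched on both strands from 250 bases before to 50 bases after each start were GCGCATGC for NRF1, CCGGAAG for ETS factors, AAGATGGCG for YY1 and TATAAA. The NRF1 letters and their reverse complement overlap in the palindrome GCGCATGCGC, which counted once per promoter. Of 72 member promoters, 11 held the NRF1 letters (15.3%, 7.88 to 25.7), against 3.66% of 16457 autosomal protein-coding promoters. The ETS letters were in 16 (22.2%) against 12.3%, the YY1 letters in 7 (9.72%) against 1.92% and TATAAA in 8 (11.1%) against 13.5%. Median GC content was 57.3%, near the 58% of other genes, while the ratio of observed to expected CpG was 0.831 against 0.642. A library 1 summit within 250 bp of the start was found at 10 of the 29 members with NRF1, ETS or YY1 letters (34.5%). It was found at 21 of the 43 members without them (48.8%). Over all 16457 autosomal protein-coding promoters the share was 40.7%. No intervals are given for the member shares, and the difference between them was not tested.

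To show what these starts look like, the 250 bases before 5 of them are printed 5′ to 3′ on the strand of the gene, from RefSeq GRCm38.p6, with motif letters in capitals. Ndufs3 (chr2:90904722-90904971, minus strand) and Ndufa8 (chr2:36049339-36049588, minus strand) are complex I genes with a library 1 peak that reaches into the stretch. Cox6a1 (chr5:115348959-115349208, minus strand) has a summit just inside the gene. Atp5g2 (chr15:102671048-102671297, minus strand) has no summit within 1 kb of its start, and Atp5b (chr10:128083057-128083306, plus strand) has none in its window.
Ndufs3: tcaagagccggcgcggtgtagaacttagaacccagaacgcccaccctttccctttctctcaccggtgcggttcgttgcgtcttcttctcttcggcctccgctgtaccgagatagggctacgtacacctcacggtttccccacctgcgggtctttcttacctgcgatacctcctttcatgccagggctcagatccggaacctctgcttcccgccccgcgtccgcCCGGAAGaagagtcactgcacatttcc
Ndufa8: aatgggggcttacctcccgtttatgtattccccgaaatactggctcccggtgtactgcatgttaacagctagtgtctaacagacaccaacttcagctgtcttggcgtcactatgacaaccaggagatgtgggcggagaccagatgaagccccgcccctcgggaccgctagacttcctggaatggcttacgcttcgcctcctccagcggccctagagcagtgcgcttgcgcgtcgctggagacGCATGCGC
Cox6a1: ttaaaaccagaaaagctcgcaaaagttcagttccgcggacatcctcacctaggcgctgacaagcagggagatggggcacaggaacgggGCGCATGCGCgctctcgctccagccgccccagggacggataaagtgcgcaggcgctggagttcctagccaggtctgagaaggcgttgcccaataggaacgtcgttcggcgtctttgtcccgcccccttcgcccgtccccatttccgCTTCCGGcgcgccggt
Atp5g2: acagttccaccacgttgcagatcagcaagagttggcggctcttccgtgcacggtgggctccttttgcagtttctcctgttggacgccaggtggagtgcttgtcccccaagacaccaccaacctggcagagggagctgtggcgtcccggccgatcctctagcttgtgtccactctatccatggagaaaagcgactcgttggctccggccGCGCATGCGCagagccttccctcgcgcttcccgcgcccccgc
Atp5b: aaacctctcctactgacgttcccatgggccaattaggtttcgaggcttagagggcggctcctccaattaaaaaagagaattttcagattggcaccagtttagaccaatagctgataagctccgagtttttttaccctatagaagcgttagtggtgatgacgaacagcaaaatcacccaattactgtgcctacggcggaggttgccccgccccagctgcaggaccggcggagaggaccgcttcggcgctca
Ndufs3, a core subunit of the hydrophilic arm, carries ETS letters, and its nearest summit lay 98 bp inside the gene with a fold of 4.31. Ndufa8, an accessory subunit, ends in the reverse complement of the NRF1 letters, and its nearest summit lay 366 bp inside with a fold of 4.04. Cox6a1, the common form of subunit VIa, holds the NRF1 palindrome and ETS letters, with a summit of fold 2.86 at 191 bp. Atp5g2, a gene of subunit c, holds the same palindrome, and its nearest summit lay at -1094 bp, before the start. The Atp5b stretch holds none of the searched letters, and the nearest summit lay 8897 bp inside from the start, beyond the far end of the gene.

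Forms of the same subunit used in different tissues were set side by side. Cox4i1, the common form, had 8 library 1 peaks with a highest fold of 4.85, and Cox4i2, a form of lung and low oxygen, had 9 with 5.12. Cox6a1 had 3 peaks with a highest fold of 4.04, and its heart and muscle counterpart Cox6a2 had 1 with 2.76. Cox6b1 had 5 with 4.85, and the testis form Cox6b2 had 1 with 2.52. These tissue forms were shorter as well, 0.932 kb for Cox6a2 against 3.31 kb and 1.30 kb for Cox6b2 against 9.14 kb.

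By peak number the further families gave other orders. Cox7a1, the muscle form, had 2 peaks with a highest fold of 5.0 in 1.86 kb, and Cox7a2, the common form, had 2 with 5.39 in 16.2 kb. Cox8b, a muscle form, had 3 peaks with a highest fold of 4.88, while the common Cox8a had 1 with 5.12 and the testis form Cox8c 1 with 4.82. Ndufa4 is now regarded as a subunit of complex IV, but by symbol it and Ndufa4l2 were counted here with complex I. Ndufa4 had 2 peaks, both before the start, with a highest fold of 3.27. Its relative Ndufa4l2, known for induction by low oxygen, had 10 with 4.52 in a gene of similar length (7.88 against 7.08 kb). Their flanks differed in the same direction, with 0.800 peaks per kb at Ndufa4l2 and 0.100 at Ndufa4. The genes of subunit c had 2 peaks (Atp5g1, highest fold 5.12), 2 (Atp5g2, 3.48) and 1 (Atp5g3, 3.77). By highest fold the common form was the higher in the Cox6a, Cox6b, Cox7a (Cox7a2 against Cox7a1) and Cox8 families. It was the lower in the Cox4 family, and Ndufa4 was lower than Ndufa4l2. In each of these comparisons the form with the higher fold was also the longer gene, as with Cox4i2 (11.1 kb) and Cox4i1 (5.99 kb). Pileups of the same peaks often gave another order. Cox6a1 had 14 reads against 18 at Cox6a2, and Cox7a2 had 19 against 23 at Cox7a1. Cox8a had 18, against 18 at Cox8b and 20 at Cox8c, and Ndufa4 and Ndufa4l2 had 16 each. The order by fold was kept for Cox6b1 (17) against Cox6b2 (10) and for Cox4i2 (18) against Cox4i1 (17). Form and length cannot be told apart here, and these differences were not tested. None of these genes had a library 2 peak.

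Many members lie close to other genes. Of the 435 peaks, 65 also had their summit in the window of another protein-coding gene (14.9%, 11.7 to 18.6). The window of 58 of 89 members met that of another protein-coding gene, against 38.3% of all autosomal protein-coding genes. Among the 31 without such a neighbour, 28 had an end peak (90.3%), where length-matched genes without one had 79.7%. Atp5j, which encodes coupling factor 6 of the stalk, is one that shares. It starts beside Gabpa, the gene of the DNA-binding subunit of GABP, and its strongest peak, with a fold of 4.31, lay at -271 bp, before the Atp5j start of the promoter table. Each of the 435 peaks was counted for a single member.

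Other autosomal genes of the pathway, from lists of known members, varied in library 1 and had no library 2 peak, and differences between the lists were not tested. All 4 genes of complex II, which feeds electrons from succinate, had an end peak, with highest folds from 3.85 at Sdhd to 6.19 at Sdhb. Density was 0.434 per kb, 0.915 of the length-matched value. Cyc1, which encodes cytochrome c1, had 2 peaks with a highest fold of 4.11. Of the cytochrome c genes, the testis gene Cyct had 7 peaks with a highest fold of 6.19, and the common gene Cycs had none. Of 28 assembly factors outside the symbol rule, 26 had an end peak (92.9%, length-matched 84.4%), and their density was 1.12 times the length-matched value. Cox16 had the highest fold, 9.43, and Cox11 had no peak. Of 13 regulators of these genes, 11 had an end peak (84.6%, length-matched 86.2%), with a density of 0.713 of the length-matched value. Nrf1 had 33 peaks and Gabpa 13.

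Copies of these genes that the annotation lists as pseudogenes often had peaks as well. Of 19 autosomal pseudogenes named after a member, 17 had a library 1 summit within the same window (89.5%), against 64.8% of 9319 autosomal pseudogenes. Their median length was 0.474 kb, and 0.924 kb over all of them, and density was 0.451 against 0.276 per kb. Atp5l-ps1 and Atp5k-ps3 had no peak. This list was chosen after the annotation was seen, and the part of read mapping between genes and copies was not tested.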

How the data were processed

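ChIP-seq peaks were analysed for 2 libraries of E10.5 mouse heads, immunoprecipitated with an anti-GFP antibody. Bowtie 1.1.2, MACS2 2.1.0, Trimmomatic 0.33 and bcl2fastq 2.17 appear in the submitters' processing notes with the builds mm10 and hg38, and neither roles nor settings are given. Each library has 1 deposited peak list, with positions in mm10. It holds a score, the fold enrichment as a ratio, −log10 p-values and −log10 q-values from the authors' caller, and a summit offset. Read depth is not given in the sources used here.

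Genes came from RefSeq GRCm38.p6, the assembly of mm10. Summits in the gene or within 1 kb of an end were counted with Python 3.11.15, numpy 2.4.6, pandas 2.3.3 and scipy 1.17.1. Whole summit pileups were solved from fold and p-value (tolerance 0.002) and recovered for 100% of member peaks. Intervals are 95% Clopper-Pearson or Poisson, and the limit for the 0 of library 2 is 3 counts over 89 genes. The counting and pileup steps were tested on simulated data. Genes named in the text are, per complex, the 2 with the highest fold and the one with the most peaks, those without a peak, and fixed isoform families; the others named were chosen after their values were seen. The members and lists were chosen with earlier results of these data known. No test between groups or sets was run. The labels state no separate embryos for the libraries. Of the 4 symbols listed as X-linked subunits, Cox7b2 lies on chromosome 5 and was counted as a member. Motif sites are letter matches only.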

Additional observations from a re-analysis of the deposited data

How the results depend on the processing

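No library 2 peak was found at a member under the 6 alternatives that counted them (overlap, windows of 500 bp and 5 kb, and the 3 that leave out members). Density per kb stayed below that of length-matched genes under all alternatives run for it. The surplus of end peaks reversed with stricter peaks. With −log10 q of at least 5 it was -11.6 percentage points, and for the 10% of peaks with the highest fold -5.42. By group, the stricter −log10 q gave -6.33 points for complex I, -12.3 for complex III, -8.01 for complex IV and -37.2 for assembly factors. The highest-fold peaks gave -15.3 for complex III, -10.6 for complex IV and -15.8 for assembly factors. Complex III and the assembly factors have 8 genes each, and no intervals are given for these group values. The cause was not tested.

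With −log10 q of at least 5, 55 members had a peak in the window and 34 at an end, density was 0.12 per kb, the ratio 0.637 and the median highest fold 5.12. The highest-fold peaks gave 24 and 9 members, 0.0253 per kb and a ratio of 0.562. These lists hold fewer peaks by construction. A window of 5 kb gave a ratio of 0.798 and a median highest fold of 5.12. Leaving out genes whose window meets another left 31 members with a peak, 28 with an end peak, since fewer members remain, and 0.298 per kb, where the length-matched value was 0.427. Without the 3 members over 100 kb density was 0.39 per kb, and with each gene weighted alike 0.422, with a ratio of 0.809. These last settings, and matching on flank density, were chosen after seeing the data. Leaving out a library was not run, because each value comes from 1 library. No paired analysis was possible because the labels give a single group. Pileups of 8 to 30 reads limit how precisely peak strengths can be ranked.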

Other observations

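The 3 X-linked genes that match the symbols, Ndufa1, Ndufb11 and Cox7b, had no library 1 summit in the same window (0 to 0.197 peaks per kb, 95% Poisson interval). Autosomal genes of their length held 0.544 per kb, but X genes as a whole held few. The 379 other X protein-coding genes of the same length bins held 0.092 peaks per kb (0.0797 to 0.106), a value inside the interval of these 3 genes. They encode subunits of complexes I and IV, in which each of the autosomal members had a peak.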
